A study of Danio rerio with 12 samples.

Results

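The tissue around the first somites of the zebrafish embryo was compared between embryos that overexpressed *dmrt2a* and control embryos. Of the 12 arrays of the series, the 6 from pieces called Region 1 are described, 3 from transgenic and 3 from control embryos. They were chosen by their sample titles alone. Region 1 ran from the first to the last somite and included the tissue lateral and ventral to the somites. The remaining 6 arrays are from Region 2, which holds the tailbud, and are used only to show where Region 1 differed.

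The transgenic embryos were Tg(hsp70:HA-*dmrt2a*), in which *dmrt2a* with an HA tag is driven by the *hsp70* heat-shock promoter, so heat can switch it on in cells that do not normally express *dmrt2a*. The study describes the line as selected for a single copy of the transgene. The control embryos were wildtype. Both received the same heat-shock at bud stage, 39 °C for 30 min, were grown at 28 °C and were dissected from 2 h to 2 h 30 min later, when they had 3 to 4 somites. Each array carried RNA from a pool of 100 pieces, and the methods call the 3 replicates of a group biological. A pool averages over somites, neural plate, epidermis, lateral mesoderm, endoderm and yolk tissue, and fewer cells of a type cannot be told apart from less RNA per cell. Both groups thus carry the heat-shock, and the controls do not carry the transgene.

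Dmrt2a belongs to the DM-domain transcription factors, zinc finger proteins that share a DNA-binding domain with Doublesex of the fruit fly. In the zebrafish *dmrt2a* is expressed in the presomitic mesoderm and in the newly formed somites. It is known for keeping the somites of the left and right side in step and for a part in left-right patterning. Region 1 at this stage contains, side by side, the segmenting mesoderm, the hindbrain and anterior spinal cord above it, and the bands of lateral plate mesoderm in which vessel, blood and heart precursors arise.

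The arrays gave 1 log2 signal for each of 75212 probe sets, of which 29528 carried 1 gene symbol. Taking the brightest probe set of each gene left 20483 named genes. Array medians lay between 3.47 and 3.49, and arrays of a group differed by a median standard deviation of 0.125 on the log2 scale. In control pieces 9 of 12 somite and muscle markers were higher in Region 1 than in Region 2 and 2 were lower, while 9 of 9 measured tailbud and presomitic markers were lower in Region 1. Over all named genes, 26% were higher and 11.7% lower in control pieces of Region 1. The forebrain genes *otx2b* and *six3b* stood at 4.00 and 3.93 in control pieces of Region 1, while *egr2b*, a marker of hindbrain segments, stood at 6.92.

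*dmrt2a* itself was higher on every transgenic array. Its log2 signal was 8.74, 8.75 and 8.74 on the transgenic arrays, against 8.45, 8.36 and 8.35 on the control arrays. The groups did not overlap, but the gap was small, and the gene was well expressed in control pieces. The log2 difference was 0.35 (standard error 0.0636), with a limma adjusted p of 0.0991 over all probe sets and 0.0129 in a fit restricted to well-expressed probe sets, where it passed in 4 of 6 fits with 1 array left out. The values do not separate the transgene's transcripts from endogenous ones. Other DMRT genes were dim: *dmrt2b* stood at 2.79 in transgenic and 3.23 in control pieces, *dmrt3a* at 3.76 and 3.98, and *dmrta2* at 3.38 and 3.42, and none passed the test.

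Across all probe sets, more fell than rose. At an adjusted p under 0.05, transgenic pieces had a lower signal in 259 probe sets (0.344%) and a higher one in 122 (0.162%). With a change of 2-fold or more added, 62 were lower (0.0824%) and 22 higher (0.0293%). Counted as named genes, 131 fell (0.64%) and 63 rose (0.308%), while 124 of the 381 changed probe sets carried no gene symbol. Most of these named genes moved by less than 2-fold: 39 of those that fell and 10 of those that rose reached it. The median size was 0.77 on the log2 scale for falls and 0.68 for rises. With any 1 of the 6 arrays left out, this fit called 22 to 31 named genes lower and 0 to 3 higher.

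Moderate changes of well-expressed genes made up the larger part of the response, and the balance of rises and falls among them moved with the number of arrays. In a separate limma fit on the 22786 probe sets with a mean log2 signal above 5, 383 of 9775 named genes fell (3.92%) and 476 rose (4.87%). Of these 859 genes, 819 changed by less than 2-fold, 349 downwards and 470 upwards, and the median size was 0.42 for falls and 0.35 for rises. Among changes of 1.5-fold or more, 105 were falls and 44 rises. In all 859 the transgenic arrays lay apart from the control arrays, which was also so for 38.3% of all well-expressed named genes. The median log2 difference of all well-expressed named genes was 0.03, and the smallest difference that passed was 0.20 in size. With each array left out in turn, 309 to 367 of the 859 still passed, and this fit called 172 to 217 genes lower and 139 to 176 higher, with falls in the majority in each of the 6 fits. In what follows, "rose" and "fell" refer to an adjusted p under 0.05. Adjusted p-values are from the fit on well-expressed probe sets unless the fit on all probe sets is named. Counts of well-expressed list members are to be read against the shares of 3.92% lower and 4.87% higher given here. The lists were chosen with earlier results of these data known, so a share above these is a description and not a test. A gene can stand on more than 1 list.

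**Figure D1:**
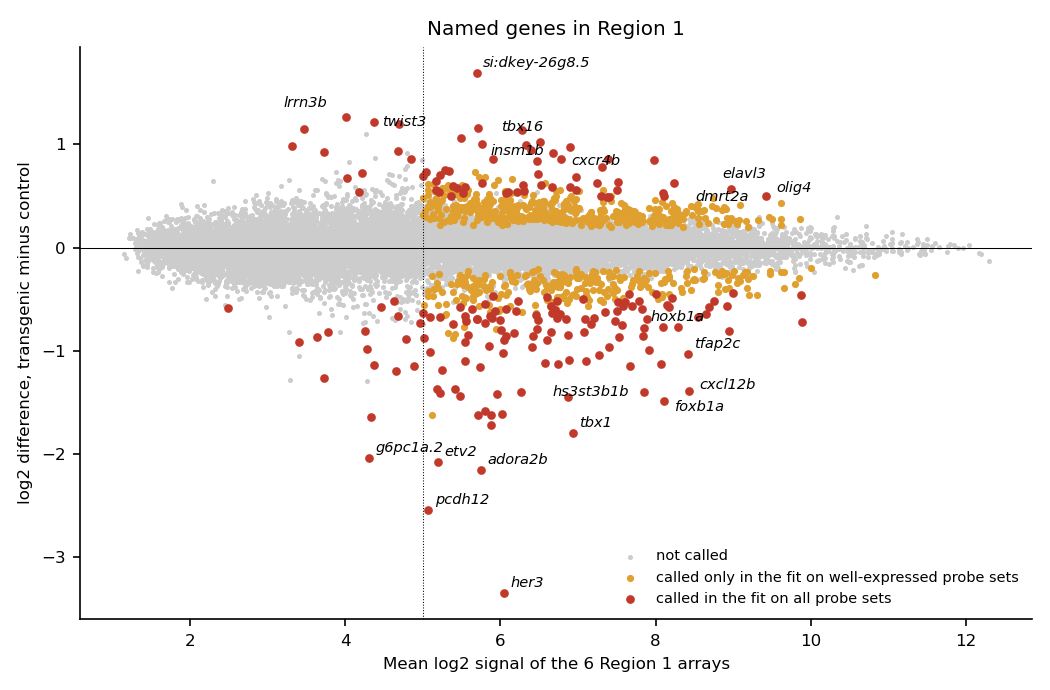
Each point is 1 named gene of Region 1, with the mean log2 signal of the 6 arrays on the horizontal axis and the log2 difference, transgenic minus control, on the vertical axis; the dotted line marks a mean of 5. Red genes passed in the fit on all probe sets (131 lower, 63 higher) and orange genes only in the fit on well-expressed probe sets, where most differences lay below 1 in size.

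The largest single fall belonged to *her3*, which encodes a bHLH repressor of the Hairy and E(spl) type and keeps neurogenesis out of the zones between the proneural stripes of the neural plate. It read 4.47, 4.38 and 4.27 on the transgenic arrays, against 7.70, 7.67 and 7.78 on the control arrays. All transgenic arrays lay far below all control arrays. The fold change was -10.2 (log2 difference -3.35, adjusted p = 0.000255 over all probe sets).

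The hindbrain patterning genes that passed the test all fell. Of 23 well-expressed genes on a list of hindbrain and midbrain-hindbrain factors, 8 fell and 0 rose, with a median log2 difference of -0.22, against 3.92% and 4.87% of well-expressed genes. In the fit on all probe sets, 6 of 35 measured members fell and 0 rose, against 0.64% and 0.308% of all named genes. The 8 were *gbx2*, *fgf3*, *cyp26c1*, *irx7*, *irx1b*, *vgll3*, *hoxb1a* and *hoxb3a*, and 7 or 8 of the list fell whichever array was left out. *gbx2*, a homeobox gene that marks the anterior hindbrain and its boundary with the midbrain, read 5.11, 5.09 and 5.00 on transgenic arrays and 6.66, 6.81 and 6.58 on control arrays (log2 difference -1.62, adjusted p = 0.000304). *fgf3*, a secreted growth factor of the hindbrain, read 4.89, 4.88 and 4.92 on transgenic arrays and 6.44, 6.70 and 6.41 on control arrays (log2 difference -1.62, adjusted p = 0.000506). In both genes every transgenic value lay well under the lowest control value.

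*cyp26c1*, which encodes an enzyme that breaks down retinoic acid in the hindbrain, read 5.15, 4.85 and 5.05 on transgenic arrays and 6.67, 6.82 and 6.70 on control arrays (log2 difference -1.71, adjusted p = 0.000506). The Iroquois gene *irx7* fell by 1.10 and *irx1b* by 0.39. *hoxb1a*, the gene that gives the fourth hindbrain segment its identity, read 7.40, 7.53 and 7.46 on transgenic arrays and 8.16, 8.24 and 8.31 on control arrays (log2 difference -0.77, adjusted p = 0.00219). Another *Hox* gene of the list, *hoxb3a*, fell by 0.34 (adjusted p = 0.0295), and passed in only 1 of 6 fits with an array left out. The hindbrain marker *egr2b*, in contrast, stood at 6.75 ± 0.11 in transgenic and 6.92 ± 0.025 in control pieces (SD, n = 3 each) and did not pass (adjusted p = 0.156), and *pax2a* stood at 6.95 and 7.17 (adjusted p = 0.0719).

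The falls extended to other regulators of the neural plate. *foxb1a*, a forkhead gene of the neural plate and spinal cord, read 7.35, 7.36 and 7.38 on transgenic arrays and 8.76, 8.86 and 8.92 on control arrays (log2 difference -1.49, adjusted p = 0.000189). *prdm14*, a PR-domain zinc finger gene, read 6.15, 6.15 and 6.14 on transgenic arrays and 7.54, 7.66 and 7.59 on control arrays (log2 difference -1.45, adjusted p = 0.000144). In both, the replicates of a group lay close together and the gap between the groups was many times their spread. *zic2a*, a zinc finger gene of the dorsal neural plate, fell by 0.96, and *pnx*, a homeobox gene of the early neural plate, by 0.99. *auts2b* fell by 1.58 and its duplicate *auts2a* by 0.33. Falls under 2-fold in bright genes of this kind included *greb1l* (9.53 in transgenic and 10.25 in control pieces) and *skida1* (8.77 and 9.22).

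*Pax* genes had the highest share of members past the test among 347 groups of genes with a common symbol stem and 8 or more measured members. In the fit on all probe sets 4 of 13 fell and 0 rose, a share of 30.8%, while 0.64% of all named genes fell. *pax3a* and *pax3b* act in the dorsal neural tube, the neural crest and the dermomyotome. *pax3b* read 6.21, 6.09 and 6.17 on transgenic arrays and 6.90, 7.07 and 7.19 on control arrays (log2 difference -0.90, adjusted p = 0.00315). *pax3a* stood at 7.34 in transgenic and 7.87 in control pieces (log2 difference -0.53, adjusted p = 0.00294). *pax6a* and *pax6b*, which mark the intermediate neural tube, fell by 0.83 and 0.53. Each *Pax* gene of these 4 kept its call in the fit on well-expressed probe sets with any 1 array left out.

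The genes of the neural plate border and neural crest that passed the test also all fell. Of 22 well-expressed members of that list, 9 fell (40.9%, against 3.92% of well-expressed genes) and 0 rose. The median log2 difference was -0.13, and 4 to 6 fell when an array was left out. *tfap2c*, a transcription factor of the border and the surface ectoderm, read 7.89, 7.93 and 7.90 on transgenic arrays and 8.94, 8.93 and 8.94 on control arrays (log2 difference -1.03, adjusted p = 0.000266). *foxd3*, an early crest specifier, fell by 0.67, *mycn* by 0.57, *sox9a* by 0.45, *msx1b* by 0.33, *gata2a* by 0.31, *prdm1a* by 0.30 and *snai1b* by 0.26. *msx3*, a homeobox gene of the dorsal neural tube, lay under the limit of the well-expressed fit and read 3.41, 3.51 and 3.59 on transgenic arrays and 5.08, 5.21 and 5.16 on control arrays (log2 difference -1.65, adjusted p = 0.00164 over all probe sets). The mean of 6 crest markers, which include *foxd3* and *snai1b*, was 6.80 to 6.89 in transgenic and 6.95 to 7.07 in control pieces. Of the others, *crestin* and *sox9b* each differed by 0.11, *sox10* by -0.16 and *tfap2a* by -0.15. The mean of 8 markers of neural tube and hindbrain was 7.03 to 7.07 in transgenic and 7.37 to 7.40 in control pieces. These 8 include *pax6a* and *zic2a*, whose falls are given above, while *sox3* differed by 0.28. Neither mean is thus separate from the falls of single genes. Whether the dissected pieces held less neural or crest tissue was not measured, and its part in the result was not tested.

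Genes of neural progenitors and of early neurons moved in both directions. Of 29 well-expressed genes on the list of neural progenitors and neurogenesis, 10 fell and 9 rose, and 6 to 8 fell and 7 or 8 rose when an array was left out. Among those that fell were *sox2*, a progenitor factor (log2 difference -0.38), its relative *sox21b* (-0.33), the proneural gene *neurog1* (-0.37), the ventral homeobox gene *nkx6.1* (-0.43), *irx3a* (-0.62), *prdm13* (-0.49) and the motor neuron gene *isl1a* (-0.65). Among those that rose were genes of differentiating neurons. *insm1b*, a zinc finger gene switched on as neuroblasts differentiate, read 7.10, 7.27 and 7.05 on transgenic arrays and 6.29, 6.24 and 6.14 on control arrays (log2 difference 0.92, adjusted p = 0.0023). *myt1a*, another zinc finger gene of newborn neurons, read 7.86, 7.75 and 7.83 on transgenic arrays and 7.03, 6.95 and 6.88 on control arrays (log2 difference 0.86, adjusted p = 0.00159).

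*elavl3*, the RNA-binding protein used as a general marker of early neurons, was among the brightest of the genes that rose, at 9.22, 9.31 and 9.24 on transgenic arrays and 8.60, 8.66 and 8.80 on control arrays (log2 difference 0.57, adjusted p = 0.00714). *ebf2*, which acts as neurons mature, rose by 0.56, *onecut1* by 0.37, and the glycine receptor subunit gene *glra2* by 0.85. The direction was not uniform by role: the progenitor genes *sox3* (0.28), *nkx6.2* (0.56), *olig3* (0.59) and *olig4* (0.50) rose, as did *nes* (0.59), the gene of an intermediate filament of neural progenitors. *sox11a* rose by 0.35 while its duplicate *sox11b* fell by 0.27. The calls of *insm1b*, *myt1a*, *elavl3*, *ebf2* and *olig4* held with any 1 array left out, and those of *sox2*, *sox3*, *sox11b*, *neurog1* and *onecut1* did not.

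**Figure D2:**
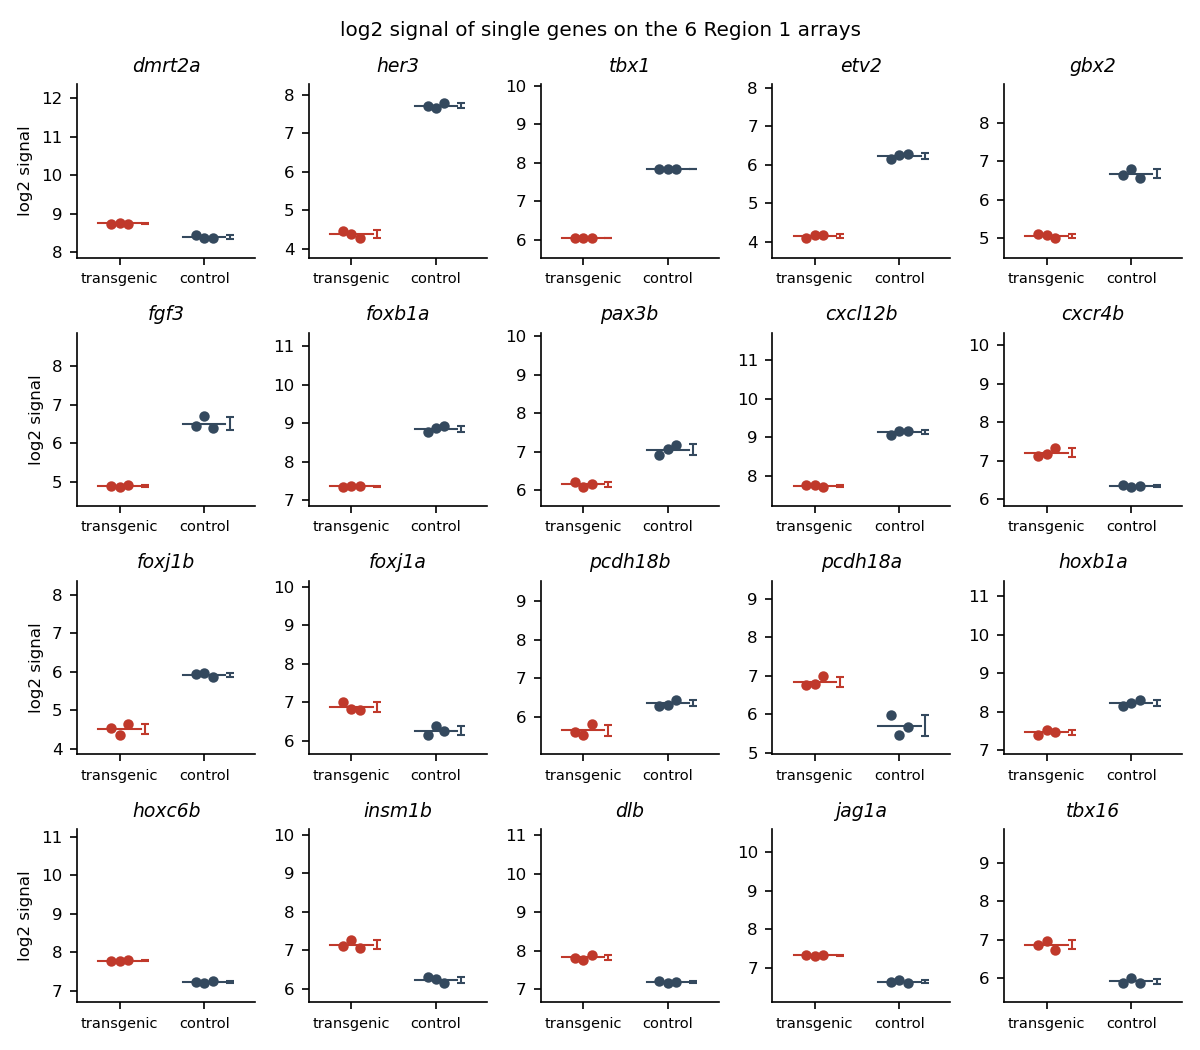
Points are the log2 signals of 20 genes on the 3 transgenic (red) and 3 control (dark) arrays of Region 1, with the group mean as a line and the standard deviation as a bar; every panel spans 4.5 log2 units. In each gene the 3 transgenic values lie apart from the 3 control values, by the most in *her3* (4.27 to 4.47 in transgenic and 7.67 to 7.78 in control pieces).

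Notch pathway genes mostly rose where they passed. In this pathway, ligands of the Delta and Jagged families on 1 cell activate Notch receptors on its neighbour, and Hairy-related repressors are the usual targets. Of 34 well-expressed members, 10 rose and 2 fell (median log2 difference 0.09), and 7 or 8 rose when an array was left out. Of the ligands, *jag1a* read 7.32, 7.30 and 7.32 on transgenic arrays and 6.62, 6.68 and 6.59 on control arrays (log2 difference 0.68, adjusted p = 0.00165). *dlb* read 7.83, 7.77 and 7.90 on transgenic arrays and 7.22, 7.16 and 7.20 on control arrays (log2 difference 0.64, adjusted p = 0.00235). *dla* rose by 0.53 and *jag2b* by 0.31. *jag2b* passed in only 1 of 6 fits with an array left out, and its further probe set had a log2 difference of 0.02.

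Of the receptors, *notch1b* rose by 0.41 (adjusted p = 0.00968) and *notch3* fell by 0.26 (adjusted p = 0.0485). The inhibitors of the pathway rose with its ligands: *numbl* by 0.56, *numb* by 0.42 and *nrarpb*, a feedback inhibitor that is itself a Notch target, by 0.62. Of the Hairy-related genes on this list, *her4.1* rose by 0.58 and *hey1* by 0.30, whereas *her6* fell by 0.24. On a list of Hairy and Hes repressors, 7 of 17 well-expressed members rose and 3 fell. The rises there included *her1*, *her2*, *her7* and *her12*, given below with the clock, and the falls were *her3*, *her6* and *her13* (-0.26). The genes *her4.1*, *hey1*, *her6* and *her13* each lost the call in 5 or 6 of the 6 fits with an array left out.

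Genes of the segmentation clock and the presomitic mesoderm mostly rose where they passed. The clock is the set of oscillating *her* and Delta genes that times the formation of somites, and *msgn1*, *tbx16* and *tbx16l* are transcription factors of the unsegmented mesoderm. Of 30 well-expressed members 12 rose and 1 fell (median log2 difference 0.17), and 9 or 10 rose when an array was left out. The counts are not separate from those of the Notch list. The rises of *dla*, *dlb*, *notch1b*, *nrarpb* and *her4.1* and the fall of *notch3* enter both. *tbx16* read 6.87, 6.97 and 6.74 on transgenic arrays and 5.87, 5.99 and 5.88 on control arrays (log2 difference 0.95, adjusted p = 0.00207). *her7* read 5.87, 5.86 and 5.77 on transgenic arrays and 5.21, 5.20 and 5.34 on control arrays (log2 difference 0.58, adjusted p = 0.00487). *tbx16l* rose by 0.75, *msgn1* by 0.53, *her1* by 0.45, *her2* by 0.34 and *her12* by 0.31. The presomitic and somite gene *tbx6*, which was already at 10.20 in control pieces, had a log2 difference of 0.29 (adjusted p = 0.0606), and *tbxta* one of 0.14 (adjusted p = 0.206).

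Several of these genes belong mainly to the tissue behind Region 1. In control pieces *tbx16* stood at 5.91 in Region 1 and 10.46 in Region 2, *msgn1* at 5.26 and 9.94, *her7* at 5.25 and 8.58, and *tbx16l* at 4.91 and 10.22. The mean level of 9 tailbud and presomitic markers was 6.44 to 6.53 on transgenic and 6.17 to 6.24 on control arrays of Region 1. In the fit on all probe sets 3 of the 9 rose and 0 fell, against 0.308% and 0.64% of all named genes, with a median log2 difference of 0.25. The rise was not shared by all members. *eve1*, at 2.96 in Region 1 and 8.36 in Region 2 controls, had a log2 difference of -0.18 in Region 1, and *fgf8a* had one of -0.28. Neither passed (adjusted p = 0.477 and 0.303 over all probe sets), and the other members had differences above 0. Where the cut between the regions lay in each pool was not measured, and its part in the result was not tested.

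A minority of *Hox* genes passed the test. Of 21 well-expressed *Hox* genes 2 fell, the hindbrain members *hoxb1a* and *hoxb3a* described above, and 6 rose, all from the central and posterior part of the clusters. *hoxc6b* read 7.77, 7.78 and 7.80 on transgenic arrays and 7.23, 7.19 and 7.24 on control arrays (log2 difference 0.56, adjusted p = 0.00217). *hoxc9a* read 5.64, 5.65 and 5.83 on transgenic arrays and 4.80, 4.98 and 5.10 on control arrays (log2 difference 0.74, adjusted p = 0.00899). *hoxb7a* rose by 0.46, *hoxb9a* by 0.42, *hoxc8a* by 0.37 and *hoxc5a* by 0.30. When an array was left out, 4 or 5 of the list rose and 1 or 2 fell; *hoxc8a* lost its call in all 6 of these fits, and *hoxc5a* and *hoxb3a* in 5. In control pieces all 6 were lower in Region 1 than in Region 2, with log2 differences from -2.05 (*hoxc6b*) to -4.34 (*hoxc9a*).

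Genes of the somites themselves changed in both directions. Of 19 well-expressed somite and dermomyotome genes 4 fell (21.1%, against 3.92% of well-expressed genes) and 2 rose (10.5%, against 4.87%), with a median log2 difference of -0.01, and 4 fell and 1 rose whichever array was left out. The largest falls were those of *pax3b* and *pax3a* given above (-0.90 and -0.53). *mespbb*, which sets the boundary of the next somite, read 5.88, 5.96 and 5.84 on transgenic arrays and 6.49, 6.60 and 6.44 on control arrays (log2 difference -0.62, adjusted p = 0.00493). *foxc1b* fell by 0.46 (adjusted p = 0.0114, and 0.0723 over all probe sets), while *foxc1a* stood at 8.96 in transgenic and 9.02 in control pieces (adjusted p = 0.506). *aldh1a2*, which encodes the enzyme that makes retinoic acid in the somites, rose by 0.37 and *meox1*, a somite homeobox gene, by 0.25. *uncx4.1*, which marks the posterior compartment of each somite, stood at 6.28 in transgenic and 6.39 in control pieces, and the values of the groups overlapped (adjusted p = 0.442).

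Among muscle genes, several structural genes rose slightly and the early regulators did not pass. The early myogenic regulators *myf5* (7.15 in transgenic and 7.13 in control pieces, adjusted p = 0.885) and *myod1* (8.86 and 9.03, adjusted p = 0.132) differed by little. Of 33 well-expressed members of the muscle list 7 rose and 1 fell (median log2 difference 0.07). The 7 were *mef2cb*, a factor of differentiating muscle (0.36), the actin gene *acta1a* (0.28), the troponin genes *tnnt3b* (0.52) and *tnnc2.2* (0.43), the titin gene *ttn.1* (0.24), *smyd1b*, needed for myofibril assembly (0.39), and the fusion peptide gene *mymx* (0.37). When an array was left out, 0 to 2 of the list rose. The mean level of 12 somite and muscle markers was 7.21 to 7.23 in transgenic and 7.12 to 7.20 in control pieces.

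In lateral mesoderm, several regulators of vessels, blood and heart fell. *etv2*, the ETS factor at the head of the vessel and blood programme, read 4.09, 4.19 and 4.18 on transgenic arrays and 6.14, 6.27 and 6.29 on control arrays (log2 difference -2.08, adjusted p = 0.000105). Its target *tal1* read 5.50, 5.68 and 5.68 on transgenic arrays and 6.14, 6.32 and 6.26 on control arrays (log2 difference -0.62, adjusted p = 0.00838). Neither gene overlapped between the groups. Of 12 well-expressed lateral plate and angioblast genes, 4 fell and 1 rose. The falls were *etv2*, *tal1*, *gata2a* and *sox17*, and *gata2a* also stands on the border and crest list and *sox17* on that of endoderm. The gene that rose was *ephb4a*, a receptor of venous endothelium (0.35). The mean of 7 markers of lateral plate, blood and vessel was 4.88 to 4.92 on transgenic and 5.19 to 5.33 on control arrays. Most of that gap came from *etv2*, *tal1* and *hand2*; *fli1* stood at 6.52 in transgenic and 6.42 in control pieces and *lmo2* at 5.99 and 5.78. Of 12 well-expressed genes of primitive blood, 2 fell, *tal1* and *cebpa* (-0.41), and 1 rose, the globin gene *hbbe1.1* (0.38).

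Of 18 well-expressed genes on the heart field list 7 fell and 2 rose, and 5 or 6 fell when an array was left out. The falls include *spns2* and *s1pr2*, signalling genes that are described and counted again below. *tbx1*, the T-box gene of the pharyngeal mesoderm and second heart field, read 6.04, 6.04 and 6.03 on transgenic arrays and 7.83, 7.83 and 7.84 on control arrays. The replicates of each group were nearly equal and the groups lay far apart (log2 difference -1.80, adjusted p = 4.13e-05). *tbx2a* fell by 0.82 and its duplicate *tbx2b* by 0.35, *hand2* by 0.56 and *isl1a* by 0.65. *nkx2.7*, a homeobox gene of the heart precursors, was dimmer, at 4.05 in transgenic and 5.25 in control pieces (log2 difference -1.19, adjusted p = 0.0147 over all probe sets). T-box genes thus went both ways, with the heart and pharyngeal members lower and the presomitic members *tbx16* and *tbx16l* higher.

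Genes of the intermediate mesoderm, which forms the pronephric kidney, also went both ways. *osr1*, at its lateral edge, read 7.18, 6.95 and 7.15 on transgenic arrays and 8.16, 8.28 and 8.28 on control arrays (log2 difference -1.15, adjusted p = 0.0015), and *wt1a*, a podocyte gene, fell by 0.57. *sim1a*, a gene of the pronephric tubule, read 6.30, 6.22 and 6.27 on transgenic arrays and 5.35, 5.40 and 5.03 on control arrays (log2 difference 1.01, adjusted p = 0.00467). The tubule regulator *hnf1bb* rose by 0.32 and *jag2b* by 0.31. Of 12 well-expressed members 5 rose and 2 fell, and 1 to 3 rose when an array was left out.

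Genes of signals that guide migrating cells went both ways. *cxcl12b*, the chemokine that attracts endodermal and vessel precursors, read 7.76, 7.75 and 7.72 on transgenic arrays and 9.07, 9.16 and 9.16 on control arrays (log2 difference -1.39, adjusted p = 0.000144). The chemokine receptor gene *cxcr4b* moved the other way, at 7.11, 7.19 and 7.34 on transgenic arrays and 6.38, 6.33 and 6.35 on control arrays (log2 difference 0.86, adjusted p = 0.00207). The related receptor gene *cxcr4a* had a log2 difference of -0.57 and did not pass (limma adjusted p = 0.14 over all probe sets). *cxcl12b* and *cxcr4b* each kept their call with any array left out. *pdgfra*, a receptor for platelet-derived growth factor on mesoderm and crest, fell by 1.09, and the ligand gene *pdgfbb* rose by 0.37.

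The list of chemokine, Pdgf and related signals also held genes of sphingosine-1-phosphate signalling, known for bringing the heart precursors to the midline. *spns2*, the exporter of sphingosine-1-phosphate in the yolk syncytial layer, read 6.29, 6.17 and 6.08 on transgenic arrays and 7.26, 7.24 and 7.44 on control arrays (log2 difference -1.13, adjusted p = 0.00167). The receptor gene *s1pr2* fell by 0.48 and the kinase gene *sphk2* by 0.23. Of the 14 well-expressed genes on the list, 6 fell and 2 rose. The falls of *s1pr2* and *sphk2* were lost in 1 and in all 6 of the fits with an array left out.

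**Figure D3:**
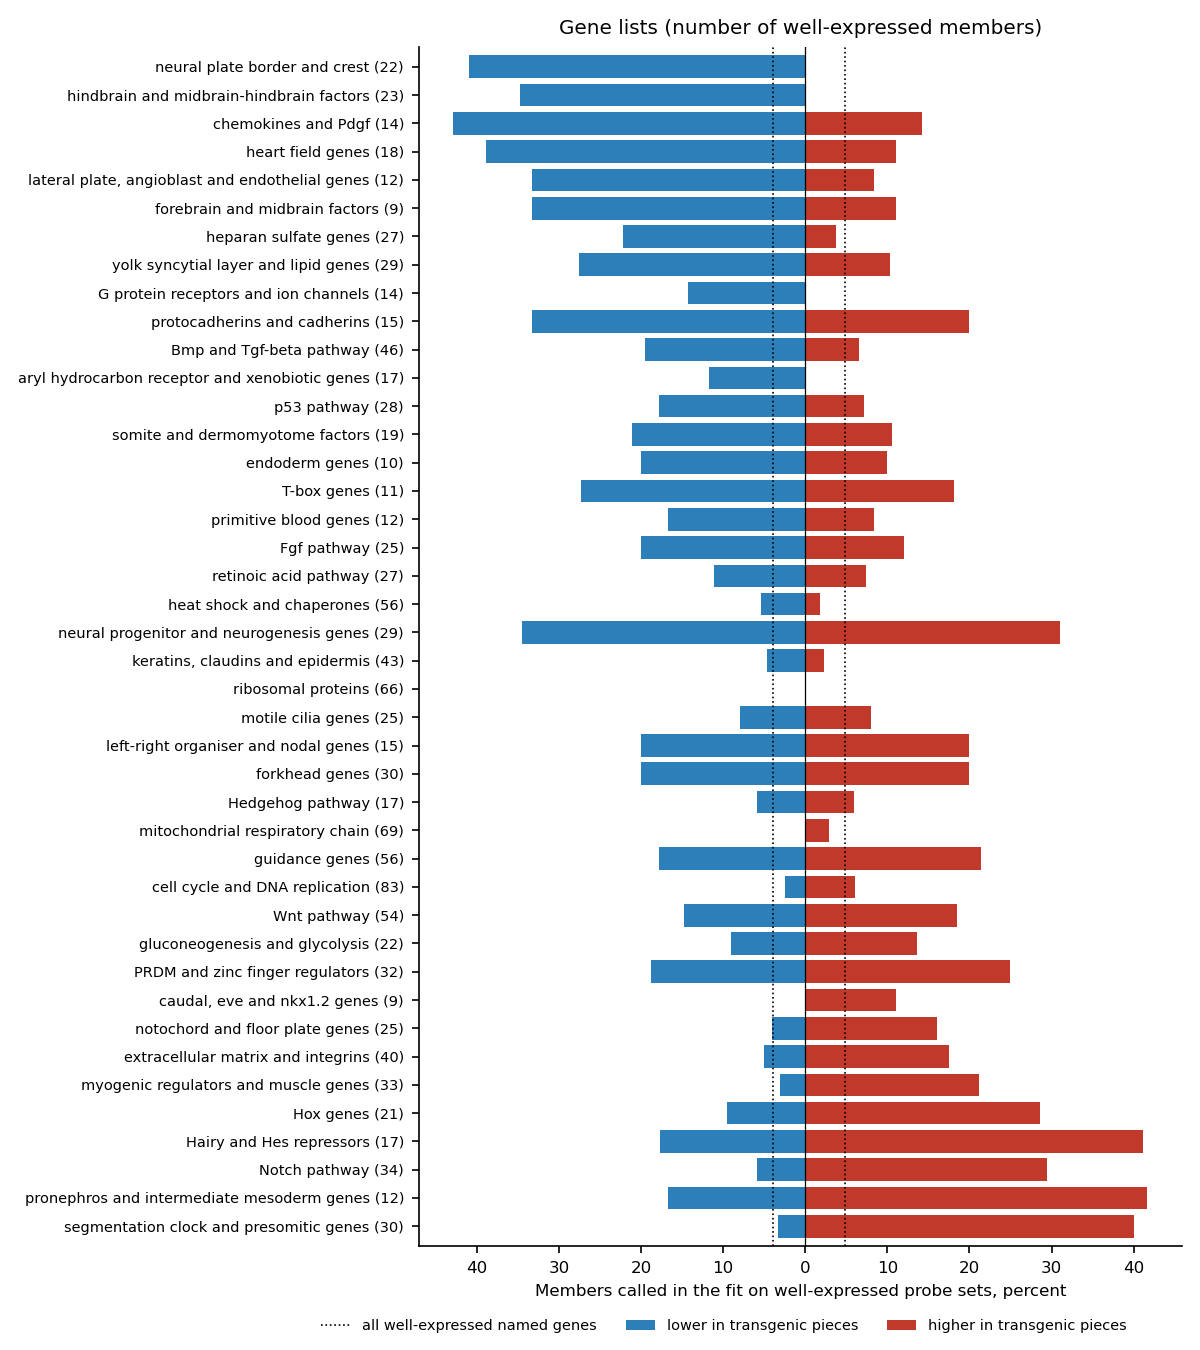
Bars give the percentage of the well-expressed members of each gene list that fell (left, blue) or rose (right, red) in transgenic pieces of Region 1; the number of members stands beside each name and the dotted lines mark the shares over all well-expressed named genes, 3.92% lower and 4.87% higher. Border and crest, hindbrain, heart field and chemokine lists lie on the left and clock, Notch and *Hox* lists on the right.

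Genes of heparan sulfate proteoglycans, which bind Fgf, Wnt and Bmp ligands at the cell surface, mostly fell where they passed. Of 27 well-expressed genes for their core proteins and modifying enzymes 6 fell and 1 rose, and 4 or 5 fell when an array was left out. *gpc4*, the glypican that acts in the Wnt pathway of gastrulation movements, read 7.50 on each of the transgenic arrays and 8.59, 8.67 and 8.63 on control arrays (log2 difference -1.13, adjusted p = 0.000242). The 3-O-sulfotransferase genes *hs3st3b1b* and *hs3st3b1a* fell together. *hs3st3b1b* read 7.07, 7.13 and 7.27 on transgenic arrays and 8.55, 8.57 and 8.55 on control arrays (log2 difference -1.40), and *hs3st3b1a* fell by 1.42. *ext1a*, which encodes a polymerase of the chain, fell by 0.47, the sulfatase gene *sulf1* by 0.51 and the syndecan gene *sdc4* by 0.30. The other sulfatase gene, *sulf2a*, rose by 0.40.

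In the Fgf pathway, 5 of 25 well-expressed members fell and 3 rose. Besides *fgf3*, the receptor gene *fgfr1b* fell, at 8.44, 8.61 and 8.56 on transgenic arrays and 9.35, 9.35 and 9.33 on control arrays (log2 difference -0.81, adjusted p = 0.00186). *dusp6*, a phosphatase gene switched on by Fgf signalling, fell by 0.77. *dusp2*, a related phosphatase gene, was dimmer and stood at 3.80 in transgenic and 4.94 in control pieces (log2 difference -1.14, adjusted p = 0.00833 over all probe sets). *fgf18b* rose by 0.30. The members that rose did so in 0 or 1 case when an array was left out.

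Among Bmp and Tgf-beta genes 9 of 46 fell and 3 rose. The ligand gene *bmp7a* read 6.34, 6.44 and 6.42 on transgenic arrays and 6.97, 7.01 and 7.03 on control arrays (log2 difference -0.60, adjusted p = 0.00243), and the ligand genes *bmp6* and *bmp16* fell by 0.55 and 0.83. *tll1*, which encodes a protease that cuts the Bmp inhibitor Chordin, fell by 1.02, while *chrd*, the gene of Chordin itself, rose by 0.30, and *grem2a*, another Bmp antagonist, by 0.46. *fsta*, the gene of the activin and Bmp antagonist follistatin, was among the falls (-0.39), so antagonists went both ways. When an array was left out, 3 or 4 of the list fell and 0 or 1 rose. The median of the list was 0.04. *foxh1*, the forkhead factor that carries Nodal signals to DNA, read 5.21, 5.17 and 5.28 on transgenic arrays and 6.72, 6.84 and 6.94 on control arrays (log2 difference -1.61, adjusted p = 0.000304).

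Wnt genes moved in both directions. Of 54 well-expressed members 8 fell and 10 rose, with a median of 0.05, and 5 or 6 fell and 3 to 5 rose when an array was left out. Of the genes for secreted inhibitors, *sfrp1a* and *sfrp2* fell by 0.67 and 0.87, while *sfrp5* and *notum1a* rose by 0.37 and 0.35. The ligand gene *wnt3a* fell by 0.56. The nuclear effector *lef1* rose by 0.39, the Wnt targets *sp5a* and *sp5l* by 0.53 and 0.27, *fzd8a* by 0.51 and *wnt5b* by 0.42. In the retinoic acid pathway 3 of 27 fell and 2 rose. *rdh10a*, for the first step of synthesis, fell by 0.41 and *dhrs3b*, for the reverse step, by 0.52, while *aldh1a2* rose, and the degrading enzyme gene *cyp26c1* was the third fall. Hedgehog genes showed 1 fall and 1 rise among 17.

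Cell surface proteins of the protocadherin and ephrin families contained several of the larger changes. *pcdh12*, a protocadherin gene known from mammalian endothelium, read 4.01, 3.74 and 3.65 on transgenic arrays and 6.30, 6.30 and 6.42 on control arrays (log2 difference -2.54, adjusted p = 0.000189). *cdh6*, a cadherin gene of the pronephros and neural crest, fell by 0.96, *pcdh19*, expressed in the neural plate, by 0.64 and *cdh11* by 0.30. Of 15 well-expressed protocadherin and cadherin genes 5 fell and 3 rose, and 4 or 5 fell and 1 or 2 rose when an array was left out. Among guidance genes 10 of 56 fell and 12 rose, and 7 to 9 fell and 2 to 6 rose when an array was left out. The Eph receptor gene *epha7* read 5.38, 5.42 and 5.35 on transgenic arrays and 6.32, 6.35 and 6.33 on control arrays (log2 difference -0.95, adjusted p = 0.000385), whereas *epha2a* rose by 0.50.

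Of 14 well-expressed genes on the list of G protein receptors and ion channels 2 fell and 0 rose, both for adenosine receptors. *adora2b* read 4.48, 4.74 and 4.78 on transgenic arrays and 6.90, 6.78 and 6.80 on control arrays (log2 difference -2.16, adjusted p = 0.000242). *adora2ab* read 7.05, 7.03 and 7.19 on transgenic arrays and 7.99, 7.93 and 7.95 on control arrays (log2 difference -0.87, adjusted p = 0.00159). No overlap was seen in either gene. The third A2 receptor gene measured, *adora2aa*, had a log2 difference of -0.02 (adjusted p = 0.881). *coro2a*, which encodes an actin-binding protein of the coronin family, fell by 1.12, and *cahz*, a carbonic anhydrase gene of blood cells, by 1.44.

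Many zebrafish genes exist as a and b copies, left by the genome duplication of teleosts. Pairs were matched here by symbol alone, so some may not be such copies, for example *dla* and *dlb*. Of 875 pairs of named genes whose symbols share a stem and end in a and b, both well expressed, 22 had both members past the test and 153 had 1. Among all well-expressed named genes 3.92% fell and 4.87% rose, so many pairs with 1 changed member arise from these shares alone. Whether the pair counts exceed that was not tested. Among the 22, the members moved in opposite directions in 9 pairs, fell together in 7 and rose together in 6. *foxj1b* and *foxj1a*, both regulators of motile cilia, were the pair with the largest distance. *foxj1b* read 4.55, 4.36 and 4.63 on transgenic arrays and 5.93, 5.95 and 5.87 on control arrays (log2 difference -1.41, adjusted p = 0.000722). *foxj1a* read 7.02, 6.82 and 6.80 on transgenic arrays and 6.15, 6.37 and 6.26 on control arrays (log2 difference 0.62, adjusted p = 0.012). *foxj1a* lost its call without 1 of the arrays.

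*pcdh18a* rose by 1.14, at 6.77, 6.78 and 6.99 on transgenic arrays and 5.99, 5.47 and 5.67 on control arrays, while *pcdh18b* fell by 0.70, at 5.60, 5.53 and 5.81 on transgenic arrays and 6.29, 6.32 and 6.44 on control arrays. The zinc finger genes *sp8a* and *sp8b* had log2 differences of 0.83 and -0.28, and *sp9*, their close relative, rose by 0.78. *efnb3a* fell by 0.70 and *efnb3b* rose by 0.37, *tshz3a* fell by 0.73 and *tshz3b* rose by 0.34, and *hapln1b* fell by 0.56 while *hapln1a* rose by 0.39. *ppargc1a* and *inavaa* also rose where *ppargc1b* and *inavab* fell. Some of these calls were weak. With an array left out, *ppargc1b* passed in 0 of 6 fits, *efnb3b* in 1 and *inavab* in 3, while *ppargc1a* and *inavaa* passed in all 6. Further probe sets of *sp8b* had log2 differences from -0.21 to -0.04 and did not pass over all probe sets. The pairs that fell together included *pax3*, *pax6*, *tbx2*, *auts2*, *hs3st3b1* and *sema3f*, and those that rose together included *klf2*, *slit1*, *sema3a*, *ephb4* and the cytokinesis pair *prc1*.

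Genes of the yolk syncytial layer and of lipid transport fell more often than they rose. Of 29 well-expressed members 8 fell, 3 rose and 18 did not pass, and 5 or 6 fell when an array was left out. *mxtx1*, a homeobox gene of the yolk syncytial layer, read 6.53, 6.46 and 6.51 on transgenic arrays and 7.19, 7.23 and 7.17 on control arrays (log2 difference -0.70, adjusted p = 0.00161). The sulfate transporter gene *slc26a1* fell by 0.71, the apolipoprotein gene *apoa4b.2* by 0.57 and the fatty acid binding protein gene *fabp2* by 0.52. The aminopeptidase gene *anpepb* rose by 0.99. The mean of 5 yolk syncytial layer markers was 6.57 to 6.61 on transgenic and 6.79 to 6.82 on control arrays. Of the 5, only *slc26a1* passed, and *mttp* and *apoa1a* had log2 differences of -0.14 and -0.09. The amount of yolk tissue in the pools was not measured.

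*g6pc1a.2*, for a glucose-6-phosphatase of glucose production, was uneven between transgenic arrays. It read 3.54, 2.63 and 3.71 on transgenic arrays and 5.26, 5.29 and 5.43 on control arrays (log2 difference -2.04, adjusted p = 0.0461 over all probe sets). With an array left out it passed in 1 of 6 fits. *glula*, for glutamine synthetase, was bright and fell by 0.46, at 9.65 in transgenic and 10.11 in control pieces. In surface ectoderm *grhl3*, a regulator of the enveloping layer, fell by 0.71 and *klf5a* by 1.16, while keratin and claudin genes as a list were near the background, with 2 of 43 lower and 1 higher.

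Few heat-shock genes passed between the heat-shocked groups, and p53 pathway genes passed more often. Of 56 well-expressed heat-shock and chaperone genes 3 fell (5.36%) and 1 rose (1.79%), against 3.92% and 4.87% of well-expressed genes. The median log2 difference was -0.01, and 1 fell and 0 rose when an array was left out. The largest was *hspa8b*, a gene of the 70-kDa chaperone family, which fell by 0.77, and *hspa4a*, *serpinh1a* and *ahsa1a* had log2 differences of -0.23, -0.24 and 0.25. In the p53 pathway 5 of 28 fell (17.9%) and 2 rose (7.14%). The falls were small and included the p53 targets *bbc3* (-0.49), *cdkn1a* (-0.41), *phlda3* (-0.31) and *mdm2* (-0.22), and 0 to 2 of the list fell when an array was left out.

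Few housekeeping genes passed. None of 66 ribosomal protein genes passed, with 0 lower and 8 higher at an unadjusted p under 0.05 and a median log2 difference of 0.04. Of 69 genes of the mitochondrial respiratory chain 2 rose and 0 fell, and of 83 genes of the cell cycle and DNA replication 5 rose (6.02%, against 4.87% of well-expressed genes) and 2 fell, with 0 or 1 in each direction when an array was left out. Extracellular matrix and integrin genes had 7 rises (17.5%) and 2 falls among 40, and 2 to 4 rose and 0 to 3 fell when an array was left out.

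**Figure D4:**
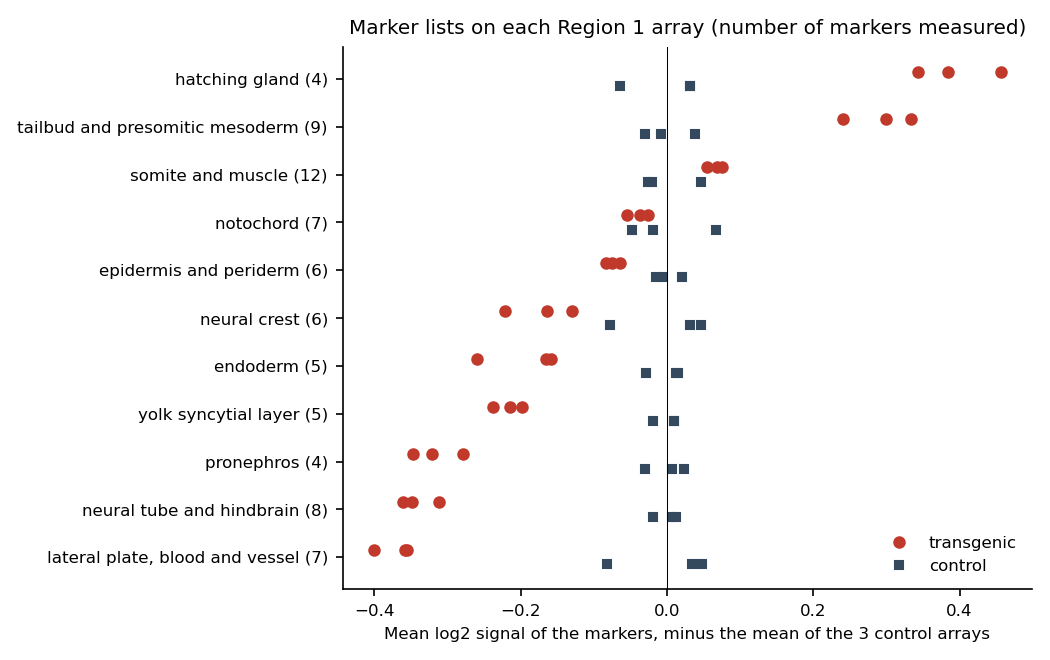
Each row is a list of marker genes, with the number measured, and each symbol the mean log2 signal of the list on 1 array of Region 1, minus the mean of the 3 control arrays (circles transgenic, squares control). Tailbud, hatching gland and, narrowly, somite and muscle lists lie above the controls. Neural, crest, lateral plate, pronephros, endoderm, epidermis and yolk lists lie below, while notochord values overlap.

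Some of these marker lists rested on single genes. The mean of 4 pronephros markers was 7.28 to 7.35 in transgenic and 7.60 to 7.65 in control pieces, but *pax8* (7.38 in transgenic and 7.33 in control pieces) and *lhx1a* (7.82 and 7.76) were not lower, whereas *osr1* fell by 1.15. The mean of 4 hatching gland markers was 5.60 to 5.71 in transgenic and 5.19 to 5.28 in control pieces, with the largest difference in *ctslb*. Endoderm markers averaged 6.07 to 6.17 in transgenic and 6.30 to 6.34 in control pieces. The largest difference was in *cxcr4a* (-0.57, limma adjusted p = 0.14 over all probe sets), and *sox17* fell by 0.43. *sox32* differed by -0.08, *foxa2* by 0.02 and *foxa3* by 0.09. Notochord markers averaged 6.43 to 6.46 in transgenic and 6.43 to 6.55 in control pieces and did not separate.

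Of the 194 named genes past the test over all probe sets in Region 1, 75 also passed in Region 2, where 0.874% of named genes fell and 0.137% rose. Of these 62 fell in both regions, 9 rose in both and 4 went opposite ways. The difference between the effects in the regions was tested for every gene and passed for 80 of 20483 (0.391%), 37 of which were among the 194. In 29 of the 37, all picked by a call in Region 1, the change was larger in size there, which that choice favours. Among these were the hindbrain genes *gbx2* and *fgf3* and the heart field gene *tbx1*. *gbx2* differed by -1.62 in Region 1 and 0.21 in Region 2 (adjusted p of the difference 0.00133), *fgf3* by -1.62 and 0.10 (0.000666), and *tbx1* by -1.80 and -0.30 (2e-04).

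Several of these genes were hardly detected in Region 2 to begin with. In control pieces *tbx1* stood at 7.83 in Region 1 and 3.40 in Region 2, *gbx2* at 6.68 and 4.15, and *cyp26c1* at 6.73 and 3.15. *her3* was well expressed in both, at 7.72 in Region 1 and 8.31 in Region 2 controls, and its fall was larger in Region 1 (-3.35) than in Region 2 (-1.04; adjusted p of the difference 4.8e-05). *cxcl12b* stood at 9.13 and 7.70 in controls and differed by -1.39 in Region 1 and by -0.17 in Region 2 (adjusted p of the difference 0.00194). *zic2a*, at 6.89 and 5.74 in controls, differed by -0.96 and -0.05 (0.0151).

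Other genes fell more in Region 2. The log2 difference was -0.52 in Region 1 and -2.18 in Region 2 for *grin2da*, a glutamate receptor subunit gene that stood at 4.88 and 8.31 in controls, -1.15 and -2.31 for *osr1*, -1.04 and -1.86 for *pxdc1b*, and -2.08 and -2.99 for *etv2*. *etv2* reached a like level in transgenic pieces of both regions, 4.15 and 4.14, from controls at 6.23 in Region 1 and 7.13 in Region 2. *osr1* stood at 7.09 and 5.07 in transgenic and at 8.24 and 7.38 in control pieces. *fgfr1b*, *adora2b*, *coro2a*, *foxj1b*, *pnx* and *cxcr4b* had differences within 0.12 of each other in the regions. The test of the difference did not pass for these genes, which does not show that the effects are equal.

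The 4 genes that went opposite ways with both calls past the test lie close together on chromosome 12. They were *ctslb*, a cathepsin gene of the hatching gland, *si:dkey-26g8.5* and *zgc:174153*, which both have cathepsin L as a synonym, and *wu:fa26c03*, for which the annotation gives no other name. *si:dkey-26g8.5* read 6.53, 6.69 and 6.39 on transgenic arrays and 5.02, 4.81 and 4.71 on control arrays of Region 1 (log2 difference 1.69, adjusted p = 0.00131), and differed by -1.67 in Region 2. The other 3 rose by 1.06 to 1.19 in Region 1 and differed by -1.59 to -1.53 in Region 2. Tandem copies can share sequence, so reads of 1 copy by the probe sets of another cannot be told apart, and *wu:fa26c03* and *zgc:174153* had mean signals under 5. When the study checked selected genes of its array data by qPCR, *ctslb* in Region 1 was the exception that did not hold.

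**Figure D5:**
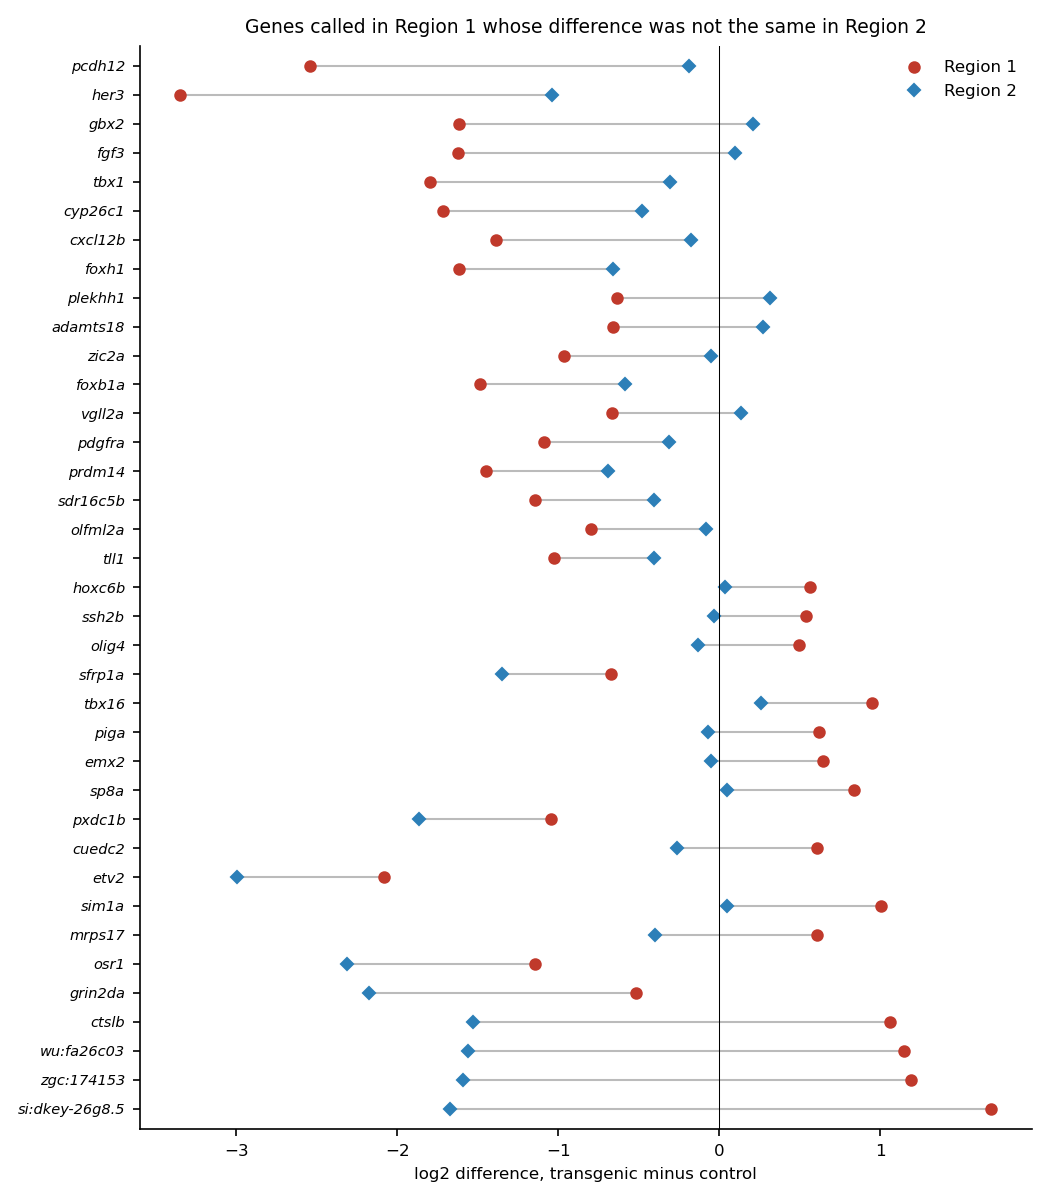
The 37 genes past the test in Region 1 whose effect also differed between the regions, with the log2 difference, transgenic minus control, in Region 1 (circles) and Region 2 (diamonds) on the horizontal axis. The genes of the chromosome 12 group cross 0 (1.06 to 1.69 in Region 1 and -1.67 to -1.53 in Region 2), and *gbx2*, *fgf3* and *tbx1* lie closer to 0 in Region 2.

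Further rises were those of *lrrn3b*, a leucine-rich repeat protein gene (4.65 in transgenic and 3.38 in control pieces, log2 difference 1.26), *twist3*, a bHLH factor gene (4.98 and 3.76, 1.22), and the calcium channel subunit gene *cacna2d3* (3.80 and 2.82, 0.99). All passed over all probe sets (adjusted p = 0.0106, 0.0307 and 0.0106) and were dim in control pieces. *emx2*, a homeobox gene, rose by 0.65 in Region 1 and differed by -0.05 in Region 2.

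The genes with the firmest calls were those that passed over all probe sets whichever array was left out. There were 22 of 194, all lower: *adora2b*, *auts2b*, *coro2a*, *cxcl12b*, *cyp26c1*, *etv2*, *fgf3*, *foxb1a*, *foxh1*, *foxj1b*, *gbx2*, *gpc4*, *her3*, *hs3st3b1b*, *msx3*, *pcdh12*, *pdgfra*, *prdm14*, *pxdc1b*, *sdr16c5b*, *tbx1* and *tfap2c*. In the fit on well-expressed probe sets 155 falls and 101 rises held in this way.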

How the data were processed

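The 12 arrays are Affymetrix Zebrafish Gene 1.1 ST arrays. The deposited values are log2 signals, 1 per probe set and array, which the authors made in Affymetrix Expression Console. The summarization and normalization settings are not given in the sources used here. Probe sets were named from the platform annotation where it gave 1 gene, with symbols updated through gene identifiers, and a gene was represented by its probe set of highest mean signal. All 12 value columns matched a sample, and 0 were left out.

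Transgenic and control arrays of Region 1, 3 each, were compared with limma 3.58.1 in R 4.3.3 (lmFit and eBayes, two-sided, Benjamini-Hochberg over all 75212 probe sets, 4 residual degrees of freedom). The authors' methods used a one-way analysis of variance, which was run as an alternative. A second fit took only probe sets with a mean log2 signal above 5. It was added after the data had been seen, as were its alternatives. The difference between regions was an interaction term over all 12 arrays. Tables and figures were made in Python 3.11.15 with matplotlib 3.10.9. The fits were tested on simulated data. There limma over all probe sets recovered 10% of 50 probe sets changed by 0.5 on the log2 scale. It recovered 70% of 50 changed by 1, and called 8 unchanged probe sets. A gene that did not pass may thus have changed. An exact permutation test of 3 against 3 arrays cannot go below 0.1, so none is given for single genes. The number of arrays limits the precision.

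The members and gene lists were chosen with earlier results of these data known. Genes were named by a rule: *dmrt2a*, other DMRT genes, *foxc1a*, *foxc1b* and genes the study plotted for Region 1; the 15 largest falls and rises past an adjusted p of 0.05 whose arrays did not overlap; among genes with a mean above 5 and a change under 2-fold, the 20 of smallest adjusted p each way; up to 4 members per list; and members past 0.05 in the 5 symbol families of 8 or more genes with the highest share. Another 124 named genes fell outside it and were chosen after their values were seen. Of 106 further probe sets with other values for the genes named, 91 had the same direction and 0 were past the threshold in the opposite direction. Most of the 91 did not pass over all probe sets, and some hardly differed though well expressed. Such probe sets of *jag2b*, *tnnt3b* and *phlda3* had log2 differences of 0.02, 0.10 and -0.05. Alternatives were the variance model, array weights, a further quantile normalization, median centring, filters on dim, unnamed or identical probe sets, a replicate block and leaving out each array.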

Additional observations from a re-analysis of the deposited data

Results flagged for a closer look

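For 46 of the genes named or plotted above, the effect of the transgene differed between the regions by the interaction test (adjusted p under 0.05). The values in brackets are the log2 effect in Region 1 minus that in Region 2, so a negative value marks a stronger fall, or a weaker rise, in Region 1. Among regulators of the hindbrain and neural plate they were *her3* (-2.31), *gbx2* (-1.83), *fgf3* (-1.72), *cyp26c1* (-1.24), *zic2a* (-0.91), *foxb1a* (-0.90), *prdm14* (-0.76), *otx2b* (0.65), *emx2* (0.69), *olig4* (0.63), *onecut1* (1.11) and *sp8a* (0.78). Among genes of crest, heart field, vessels and lateral or intermediate mesoderm they were *sox9a* (-0.88), *tbx1* (-1.49), *pcdh12* (-2.35), *pdgfra* (-0.78), *cxcl12b* (-1.21), *etv2* (0.92), *osr1* (1.16), *sim1a* (0.96) and *hnf1bb* (1.198). Among genes of somites, presomitic mesoderm and axial position they were *dmrt2a* (-1.04), *myf5* (1.21), *tbx16* (0.69), *her12* (0.54), *hoxc6b* (0.53) and *vgll2a* (-0.80). *dmrt2a* itself stood at 8.76 in transgenic and 7.37 in control pieces of Region 2, and *myf5* at 7.71 in transgenic and 8.90 in control pieces of Region 2. Among signalling and surface genes they were *foxh1* (-0.95), *tll1* (-0.62), *sfrp1a* (0.67), *rdh10a* (-1.11), *efnb3b* (0.64), *grin2da* (1.66), *adamts18* (-0.93) and *olfml2a* (-0.71). The 4 neighbouring genes on chromosome 12 had the widest gaps above 0, with *si:dkey-26g8.5* (3.36), *zgc:174153* (2.78), *wu:fa26c03* (2.71) and *ctslb* (2.59). The remaining genes were *cuedc2* (0.87), *mrps17* (1.01), *piga* (0.69), *plekhh1* (-0.95), *pxdc1b* (0.82), *sdr16c5b* (-0.74) and *ssh2b* (0.57). Some of the genes were dim in a region. *otx2b* stood at 3.59 in transgenic and 4.00 in control pieces of Region 1, and at 2.03 and 3.09 in Region 2. It did not pass in Region 1 (limma adjusted p = 0.0828 over all probe sets). *pcdh12* stood at 3.92 in transgenic and 4.11 in control pieces of Region 2. The part of the different tissue makeup of the regions in the gaps listed here was not tested.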

How the results depend on the processing

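No called result changed direction under the settings run, but the counts moved with the test and the number of arrays. Against 259 probe sets lower and 122 higher (62 and 22 at 2-fold) and 131 named genes lower and 63 higher, the one-way analysis of variance gave 111 and 51 (31 and 1), and 73 and 30 genes. A trend with a robust spread gave 578 and 431, and 285 and 225 genes. A fit over all 12 arrays gave 632 and 549, with 36 higher at 2-fold, and 307 and 294 genes. Probe sets with a mean above 5 gave 857 and 830, with 14 higher at 2-fold, and 383 and 476 genes. Probe sets with 1 symbol gave 494 and 461, with 13 higher at 2-fold, and 376 and 369 genes. Keeping 1 of identical probe sets gave 199 higher and 102 genes higher. A fold of 1.5 in place of 2 gave 205 and 92. Without 1 array, 29 to 39 probe sets were lower and 1 to 7 higher (29 to 37 and 1 to 7 at 2-fold), and 22 to 31 genes lower and 0 to 3 higher. Of the 194 genes, 66 passed the analysis of variance and 187 to 194 passed under array weights, quantile normalization, median centring, the robust trend and all 12 arrays. Well-expressed genes numbered 251 lower and 243 higher by the analysis of variance, 754 higher over all 12 arrays, and 172 to 217 lower and 139 to 176 higher without 1 array. Of the 859, 841 passed after centring and 416 the analysis of variance. Same-numbered arrays did not deviate together (correlations -0.0216, -0.00207 and 0.00315), so the numbers were not read as pairs. With the replicate block limma called 0 probe sets and 0 genes (smallest adjusted p 0.0624), while 1102 genes lower and 1448 higher had an unadjusted p under 0.05. Where counts moved, fewer or other probe sets or arrays entered the fit, or the spread was estimated differently. With 3 arrays a group and 4 residual degrees of freedom, small differences were often not detectable, those of dim genes in particular.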
